A study of Mus musculus with 4 samples.

Results

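Genes of the granzyme, perforin and cytotoxic type were described in mouse CD4+ T cells carrying a degradation-resistant Regnase-1. The 9 genes (Gzmb, Gzma, Prf1, Nkg7, Klrd1, Srgn, Serpinb6b, Serpinb9 and Ctsw) are 9 of 16142 genes in the expression table. They were chosen by name with their WT and R111A levels known, so their levels and differences are a description, without a test.

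Regnase-1 is a ribonuclease that the MALT1 protease cleaves after T cell receptor stimulation. R111A cells express an added Regnase-1 transgene in which the arginine at the MALT1 cleavage site is replaced by alanine. CD4+ T cells were isolated from spleens of WT B6 or Cd4CreERT2 LSL-R111A fl/fl mice, with tamoxifen named at 75 mg/kg intraperitoneally for 5 days, without the protocol setting the genotypes apart. After sorting, cells received 5 µg/mL anti-CD3 plus 1 µg/mL anti-CD28 over 12 h, and polyA RNA was then sequenced in 2 libraries per group. Cre is driven from Cd4 and the mutant is a transgene expressed once a floxed stop is removed, marked by GFP. WT cells carry neither the Cre nor the transgene, so effects of these and of the mutant protein cannot be told apart. The transgene sits at the Rosa26 locus and adds to the cell's own Regnase-1. Effects of a higher Regnase-1 level and of its resistance to cleavage thus cannot be told apart either. The study generally used young adult mice of both sexes; the CD25 gate used for these libraries was not given in the sources used here.

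Levels are FPKM, fragments counted for a gene, scaled to the length of its transcript and to the mapped fragments of the library. Zc3h12a, which encodes Regnase-1, measured 16.97 and 15.72 FPKM in WT samples and 196.3 and 130.87 FPKM in R111A samples. The R111A libraries were the high ones, as their labels say, and the groups did not overlap. Estimated from the steps between low values, the libraries held about 17800000 and 17500000 fragments (WT) and 16800000 and 15100000 fragments (R111A). Read as steps of single fragments, with the step fitted to these same values, between 70.0% and 76.5% of the low values used lay within 0.2 of a whole number of fragments, against 40.0% for values spread evenly.

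Cytotoxic lymphocytes kill by releasing granules in which perforin, a pore-forming protein, delivers granzymes, serine proteases that cleave proteins inside the target cell. Granzymes are stored on the proteoglycan serglycin, trimmed to their active form by cathepsin C, and held in check in the cytosol by serpins. CD4+ T cells can take up parts of this programme after strong stimulation, under transcription factors of the T-box and RUNX families.

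Promoters are shown for Gzmb and Nkg7, which were lower in R111A libraries, and for Gzma, which was higher. They are RefSeq sequences of build GRCm38.p6 reaching from 250 bases before to 50 bases after the start, and 7 of the 9 members had an entry, which Klrd1 and Ctsw did not. Capitals mark matches on either strand to AP-1 (TGANTCA), RUNX (TGNGGT), T-box (GGTGTGA) and a short T-box form (AGGTGT), the last overlapping the longer T-box motif; these are 4 of 9 motifs scanned. The Gzmb promoter lies at chr14:56262285-56262584 on the minus strand, the Nkg7 promoter at chr7:43436888-43437187 on the plus strand and the Gzma promoter at chr13:113100932-113101231 on the minus strand.
Gzmb: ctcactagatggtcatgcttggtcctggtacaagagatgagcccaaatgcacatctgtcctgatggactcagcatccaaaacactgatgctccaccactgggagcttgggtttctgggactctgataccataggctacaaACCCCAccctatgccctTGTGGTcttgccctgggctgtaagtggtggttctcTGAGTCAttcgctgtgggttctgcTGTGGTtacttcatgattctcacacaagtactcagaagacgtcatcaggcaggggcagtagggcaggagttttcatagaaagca
Nkg7: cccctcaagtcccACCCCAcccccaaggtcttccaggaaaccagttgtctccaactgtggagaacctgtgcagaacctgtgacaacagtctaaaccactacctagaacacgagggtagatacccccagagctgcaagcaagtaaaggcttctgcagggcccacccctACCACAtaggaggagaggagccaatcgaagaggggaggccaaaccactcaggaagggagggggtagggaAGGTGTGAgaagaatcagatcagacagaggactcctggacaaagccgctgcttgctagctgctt
Gzma: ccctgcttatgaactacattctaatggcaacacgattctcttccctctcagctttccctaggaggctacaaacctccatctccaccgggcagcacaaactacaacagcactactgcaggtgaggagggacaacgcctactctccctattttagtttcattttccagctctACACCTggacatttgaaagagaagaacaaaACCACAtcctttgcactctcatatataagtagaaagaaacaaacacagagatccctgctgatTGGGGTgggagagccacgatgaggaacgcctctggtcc
Gzmb held 1 AP-1 match, beginning 58 bases before the start, and 3 RUNX matches. Nkg7 held 1 T-box match, overlapping 1 match to the short form, and 2 RUNX matches. Gzma held 1 match to the short T-box form and 2 RUNX matches. Of the motifs not marked (NFAT, ETS, STAT, CRE and TATA), Gzmb held 1 STAT and 1 CRE match, Nkg7 1 STAT match and Gzma 1 NFAT match. Of 32851 promoters of the same length, 7.81% held the AP-1 motif, 45.8% RUNX, 3.98% T-box, 13.7% the short T-box form, 8.3% STAT, 7.51% CRE and 23.4% NFAT. A match is a description and not a site of binding.

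Among the proteases and the pore protein, Gzmb was lower and Gzma and Prf1 were higher in R111A libraries. Gzmb (gene 14939, chr14:56258836-56262334), the granzyme that cleaves after aspartate, stood at 7.07 and 6.67 FPKM in WT, compared with 0.10 and 0.77 FPKM in R111A libraries. The difference was −2.50 ± 0.22 (SE, n = 2 per group) on the scale of log2(FPKM + 1), which understates the change of low genes. The 2 R111A libraries were the low ones and did not overlap with WT, and they rested on about 2 and 13 fragments against about 143 and 132 in WT. In bulk RNA, fewer cells of a type and less RNA per cell cannot be told apart, which applies to every level given here.

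Gzma (gene 14938, chr13:113093824-113100981), the granzyme that cleaves after basic residues, had 0.10 and 0.10 FPKM in the WT libraries against 1.91 and 1.94 FPKM in R111A libraries, a log2 difference of 1.41 ± 0.13 (SE). Both WT libraries were low, at about 1 fragment each, and both R111A libraries were higher, at about 19 and 17 fragments. Prf1 (gene 18646, chr10:61297751-61304684), perforin, measured 0.51 and 0.78 FPKM in WT samples and 2.57 and 1.78 FPKM in R111A samples, a log2 difference of 0.94 ± 0.17 (SE). The R111A libraries were higher without overlap, although all 4 levels were low. Gzma, Prf1 and Klrd1 passed the filter of a mean of at least 1 FPKM only through the R111A libraries, and Gzmb only through the WT libraries.

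Srgn and Nkg7 were lower in R111A libraries. Srgn (gene 19073, chr10:62493833-62527445), serglycin, was by far the most abundant member and stood at 693.44 and 800.97 FPKM in WT, compared with 501.67 and 569.96 FPKM in R111A libraries, a log2 difference of −0.48 ± 0.14 (SE). It ranked 149, 135, 184 and 163 of 16142 genes in WT replicates 1 and 2 and R111A replicates 1 and 2. Nkg7 (gene 72310, chr7:43437138-43438246), a membrane protein of cytotoxic granules whose promoter is shown above, had 19.28 and 22.83 FPKM in the WT libraries against 4.43 and 4.14 FPKM in R111A libraries. Its log2 difference was −2.06 ± 0.15 (SE), and the R111A libraries lay below both WT libraries.

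Ctsw (gene 13041, chr19:5465043-5468628), cathepsin W, a cysteine protease of cytotoxic lymphocytes, measured 21.87 and 20.88 FPKM in WT samples and 12.54 and 9.11 FPKM in R111A samples, a log2 difference of −0.94 ± 0.17 (SE). The 2 serpins were lower as well. Serpinb9 (gene 20723, chr13:32997061-33017955), the cytosolic inhibitor of granzyme B, stood at 13.61 and 12.77 FPKM in WT, compared with 6.34 and 8.42 FPKM in R111A libraries, a log2 difference of −0.77 ± 0.16 (SE). Serpinb6b (gene 20708, chr13:32956811-32979067), another intracellular serpin, had 10.74 and 11.40 FPKM in the WT libraries against 3.51 and 4.41 FPKM in R111A libraries, a log2 difference of −1.29 ± 0.15 (SE). The R111A libraries of all 3 genes lay below the WT libraries. The 2 serpin genes are neighbours, 18.0 kb apart on chromosome 13, and reads could be shared with near copies, such as Serpinb9b and Serpinb6a, so their levels carry that uncertainty.

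Klrd1 (gene 16643, chr6:129588092-129598775) encodes CD94, a receptor of natural killer (NK) and some T cells. It measured 1.00 and 0.40 FPKM in WT samples and 12.14 and 13.59 FPKM in R111A samples, a log2 difference of 3.05 ± 0.19 (SE), the largest of the 9 on this scale. The WT libraries were low, at about 11 and 4 fragments, and the R111A libraries high, at about 123 and 120 fragments.

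**Figure D1:**
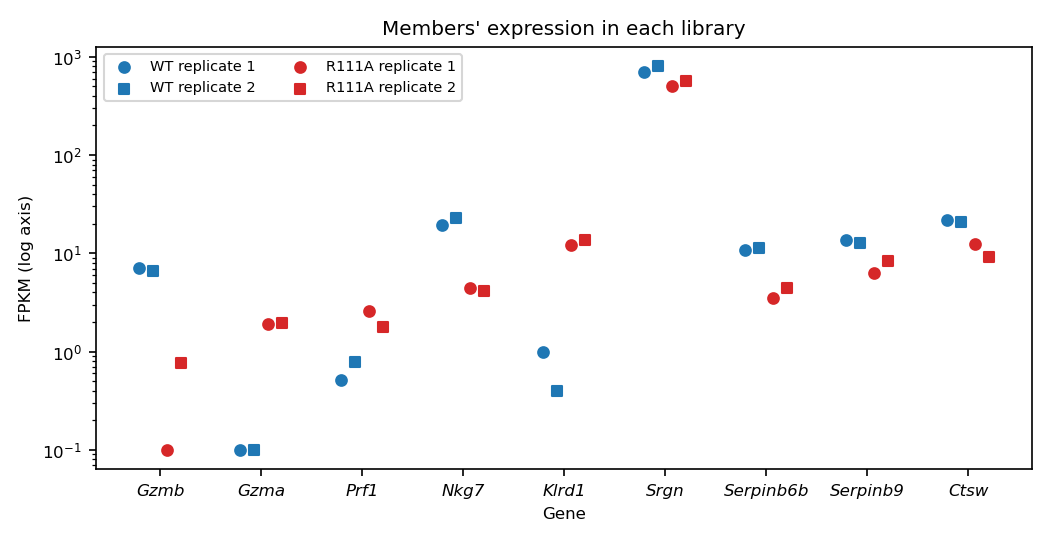
Expression of the 9 members in each library, in FPKM on a log axis; blue points are WT and red points R111A libraries, circles replicate 1 and squares replicate 2. Gzma, Prf1 and Klrd1 lie higher in R111A, with Gzma at 1.91 and 1.94 FPKM against 0.10 in WT, and the other members lie lower.

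Thus 6 members were lower and 3 higher in R111A libraries, with no overlap of the groups. Of the 9831 genes at a mean of at least 1 FPKM, 4549 (46.3%) had both R111A libraries below both WT libraries and 3150 (32.0%) had both above, where a random order of 4 values gives 16.7% for each. As the members were chosen on this contrast, nothing is read from their count. All 9 members passed the filter. The median log2 difference of the 9 was −0.77, against −0.12 over all 9831 genes.

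Genes of the pathway that were not members were tested with limma on the whole table, and adjusted p-values are those of limma with Benjamini-Hochberg adjustment over 9831 genes. At an adjusted p below 0.05, 3152 genes (32.1%) were lower and 2088 (21.2%) higher in R111A cells. With a change of at least 2-fold as well, 820 (8.34%) were lower and 838 (8.52%) higher. Both numbers by adjusted p alone fell when either WT library was left out and rose when either R111A library was. Of 142 listed genes, 135 were in the table and 108 were tested: 36 were lower and 28 higher, which is 33.3% and 25.9% and lies close to the share of all genes. Of those higher, Gzmm, Lgmn, Eomes and Klrc1 passed the filter only through the R111A libraries, and Klrc1 lost its call without it (adjusted p = 0.12). The scale of the libraries moves the split of all genes. By adjusted p alone 60.2% of called genes were lower; after rescaling every library to the same sum (TPM) this was 79.2%, and with median-of-ratios factors 49.0%. With the 2-fold change the same shares were 49.5%, 75.0% and 38.6%. By adjusted p alone, the listed genes gave 53 lower and 24 higher under TPM, and 29 lower and 31 higher with median-of-ratios factors. The shares of all genes tested, 32.1% lower and 21.2% higher, are the background for the counts of each list below. The lists are small, so nothing is read from a count alone. In each called gene named here, the R111A libraries were both above or both below the WT libraries.

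Among the other granzymes, only Gzmm passed the filter, through the R111A libraries alone, and it rose. Gzmm, granzyme M, stood at 0.63 and 0.93 FPKM in WT, compared with 24.45 and 20.69 FPKM in R111A libraries (log2 fold change 3.73 ± 0.16, SE, adjusted p = 3e-06, and 0.012 without the filter). Gzmk, the neighbour of Gzma at 70.6 kb, had 0.07 and 0 FPKM in the WT libraries against 1.82 and 1.16 FPKM in R111A libraries, below the filter. Both R111A libraries were above both WT libraries for each. Gzmc, the neighbour of Gzmb at 17.2 kb, measured 0.53 and 0.18 FPKM in WT samples and 0 and 0.31 FPKM in R111A samples, and overlapped between groups. Gzmd, Gzme and Gzmf were listed at 0 in every library.

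Summed over granzymes, the level was 8.4 and 8.07 FPKM in WT and 28.28 and 24.87 FPKM in R111A libraries. In WT, Gzmb made up 84.2% and 82.7% of the sum, and Gzmm 7.5% and 11.5%. In R111A, Gzmb made up 0.354% and 3.1%, and Gzmm 86.5% and 83.2%. The composition thus changed from mostly Gzmb to mostly Gzmm.

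**Figure D2:**
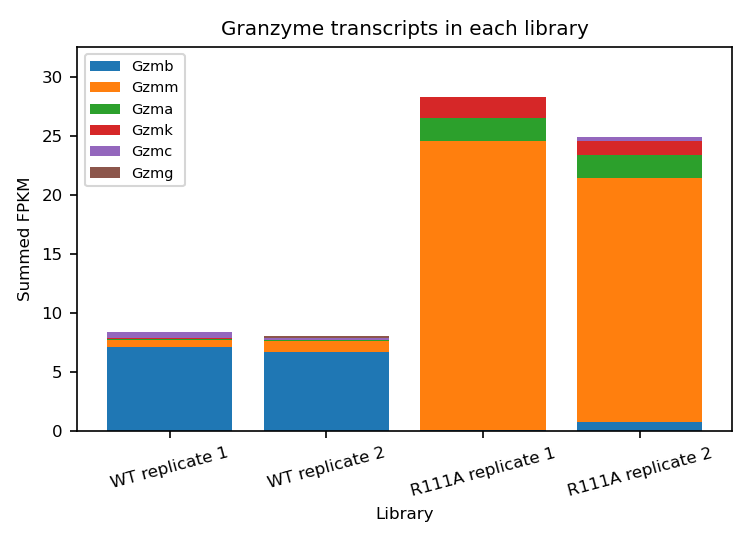
Summed FPKM of granzyme transcripts in each library, bars stacked by gene and starting at 0. The WT bars, 8.4 and 8.07 FPKM high, are mostly Gzmb; the R111A bars, 28.28 and 24.87 FPKM, are mostly Gzmm.

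The exocytosis list holds the machinery that brings granules to the membrane. Of its 23 tested genes, 4 were higher, 2 lower and 17 did not pass the test, with a median log2 difference of 0.02. Sytl2, 1 of the Rab27 effectors, rose from 1.70 and 1.82 FPKM to 9.14 and 10.84 FPKM (log2 fold change 1.99 ± 0.15, SE, adjusted p = 2.2e-05). Rab27a, the GTPase it binds, fell from 17.55 and 19.15 FPKM to 7.05 and 7.12 FPKM (−1.26 ± 0.14, SE, adjusted p = 0.00014). Vamp2, a SNARE protein, rose with a log2 fold change of 1.11 ± 0.14 (SE, adjusted p = 0.00032).

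Lamp2, a granule and lysosome membrane protein, rose (1.17 ± 0.16, SE, adjusted p = 0.00044). Unc13d, the priming factor Munc13-4, fell (−0.71 ± 0.15, SE, adjusted p = 0.0047), although the call was lost without WT replicate 1 (adjusted p = 0.085) and without the filter (0.058). Stx11, the syntaxin of granule fusion, was not called (0.21 ± 0.14, SE, adjusted p = 0.24) except without R111A replicate 1 (0.034), and its sign turned under TPM. Lamp1, the membrane marker of degranulation, was not called (0.29 ± 0.13, SE, adjusted p = 0.094), though it was without R111A replicate 2 (0.011) and with median-of-ratios (0.029) or quantile scaling (0.012), and its sign turned under TPM.

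Of the 11 tested genes of granzyme processing and sorting, 5 were higher and 4 lower, and 2 were not called. The list also holds cathepsins and sorting receptors with other uses in the cell, so it is not one of granzymes alone. Ctss, cathepsin S, rose from 54.32 and 51.41 FPKM to 224.43 and 259.05 FPKM (2.17 ± 0.13, SE, adjusted p = 1e-05). Igf2r, a mannose 6-phosphate receptor, rose (1.42 ± 0.14, SE, adjusted p = 9.3e-05). Cst7, cystatin F, an inhibitor of cathepsins in granules, fell (−1.16 ± 0.16, SE, adjusted p = 0.00045). Ctsc, the activator of granzymes, was lower at 6.46 and 6.93 FPKM against 10.03 and 9.37 FPKM (−0.48 ± 0.14, SE, adjusted p = 0.019), a call lost without either WT library (adjusted p = 0.25 and 0.15) and with median-of-ratios factors (0.059).

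Serglycin carries glycosaminoglycan chains, and of 14 tested genes of their synthesis 6 were lower and 2 higher, with a median log2 difference of −0.31. B3galt6, which extends the linker of these chains, fell (−1.42 ± 0.16, SE, adjusted p = 0.00015). Chsy1, a chondroitin synthase, fell (−1.31 ± 0.14, SE, adjusted p = 0.00012). Of the other intracellular serpins, 1 rose and 1 fell among 2 tested. Serpina3g fell from 10.21 and 8.24 FPKM to 1.17 and 0.98 FPKM (−2.30 ± 0.16, SE, adjusted p = 1.5e-05). Serpinb6a rose (1.04 ± 0.15, SE, adjusted p = 0.00054), opposite to its relative Serpinb6b.

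**Figure D3:**
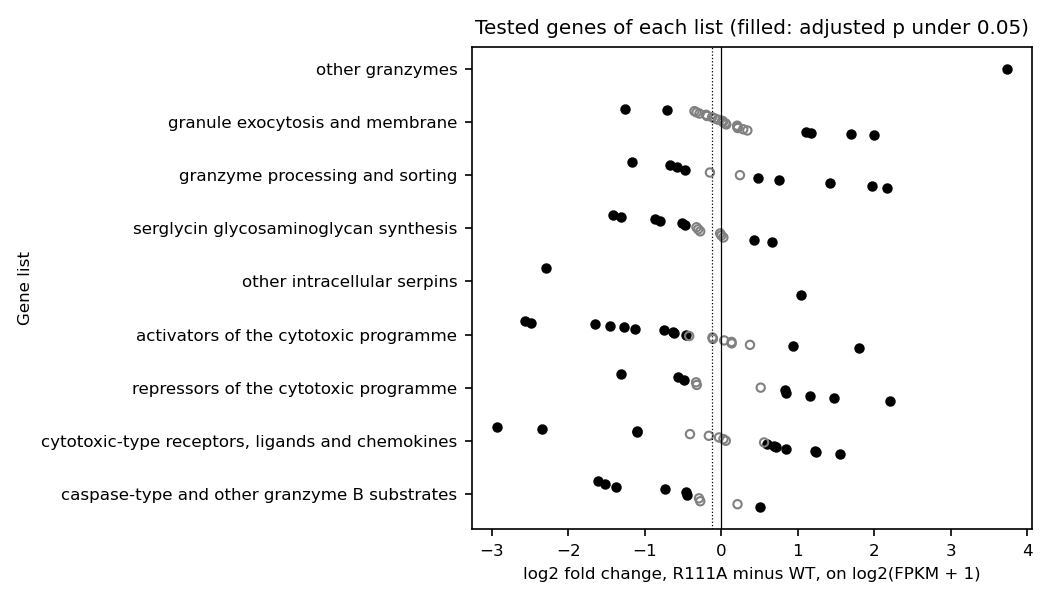
Log2 fold change of R111A minus WT for each tested gene of the lists, on log2(FPKM + 1); filled points passed an adjusted p of 0.05, open points did not, and the dotted line is the median of all genes, −0.12. Gzmm lies farthest to the right, at 3.73, and Cd226 farthest to the left, at −2.92.

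Activators of the programme, both transcription factors and receptors, moved in both directions. Of 19 tested, 10 were lower and 2 higher, against 32.1% lower and 21.2% higher among all genes tested. Their median log2 difference was −0.45. Tbx21, the T-box factor T-bet, fell from 30.32 and 29.08 FPKM to 5.44 and 3.16 FPKM (−2.57 ± 0.20, SE, adjusted p = 3e-05). Eomes, the other T-box factor of cytotoxic cells, rose from 0.88 and 0.80 FPKM to 6.68 and 4.32 FPKM (1.80 ± 0.19, SE, adjusted p = 0.00011, and 0.032 without the filter, which it passed only through the R111A libraries). In each case the groups did not overlap.

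Il12rb1, an interleukin-12 receptor chain, fell (−2.48 ± 0.15, SE, adjusted p = 1.1e-05). Irf4, a factor of T cell receptor stimulation, fell from 426.09 and 367.72 FPKM to 117.23 and 134.59 FPKM (−1.65 ± 0.14, SE, adjusted p = 3.8e-05). Batf, its AP-1 partner, fell (−1.45 ± 0.13, SE, adjusted p = 5.3e-05). Runx3 overlapped between groups and was not called (−0.42 ± 0.22, SE, adjusted p = 0.13), though it was called under TPM (0.012). Its difference was −0.71 without R111A replicate 1, −0.13 without R111A replicate 2 and −0.24 without WT replicate 1. Id2 was not called (0.38 ± 0.17, SE, adjusted p = 0.1), though it was with median-of-ratios (0.043) or quantile scaling (0.049). Its difference was 0.054 under TPM, 0.60 without R111A replicate 2 and 0.15 without R111A replicate 1. Il2ra, the high-affinity interleukin-2 receptor chain, was not called (−0.11 ± 0.12, SE, adjusted p = 0.47), though it was under TPM (adjusted p = 0.011), and its sign turned on quantile or median-of-ratios scaling. Prdm1 lay below the filter, at 0.47 and 0.70 FPKM in WT and 0.78 and 0.71 FPKM in R111A libraries.

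Of 11 tested repressors, 5 were higher and 3 lower, with a median of 0.52. Bcl6, which restrains effector programmes, rose from 7.20 and 5.95 FPKM to 37.28 and 30.46 FPKM (2.20 ± 0.16, SE, adjusted p = 2e-05). Klf2, a quiescence factor, rose from 24.70 and 20.88 FPKM to 100.18 and 41.54 FPKM (1.47 ± 0.33, SE, adjusted p = 0.0061). Its R111A replicates lay far apart, and the call was lost without the filter (adjusted p = 0.16). The log2 fold change of Klf2 was 0.84 without R111A replicate 1 and 2.09 without R111A replicate 2. Runx1 rose (1.16 ± 0.16, SE, adjusted p = 0.0005). Zbtb7b, the factor ThPOK that keeps CD4+ T cells from the cytotoxic lineage, fell (−1.31 ± 0.16, SE, adjusted p = 0.00028).

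Receptors, ligands and chemokines of cytotoxic cells were split, with 7 of 17 tested higher, 4 lower and 6 not called. Cd226, an activating receptor, fell from 25.46 and 27.53 FPKM to 1.97 and 3.41 FPKM (−2.92 ± 0.20, SE, adjusted p = 1.4e-05). Crtam, which marks cytotoxic CD4+ T cells, rose from 29.01 and 31.68 FPKM to 82.43 and 99.61 FPKM (1.55 ± 0.14, SE, adjusted p = 6.2e-05). Fasl, the ligand of the death receptor Fas, rose (1.24 ± 0.13, SE, adjusted p = 0.00013). These 3 surface proteins thus differed in direction.

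Ccl3, a chemokine of activated T and NK cells, fell (−2.34 ± 0.16, SE, adjusted p = 1.5e-05). Ifng, interferon-gamma, fell from 17.34 and 16.10 FPKM to 7.20 and 7.30 FPKM (−1.10 ± 0.14, SE, adjusted p = 0.00027). Of 10 tested granzyme B substrates, 6 were lower and 1 higher, with a median of −0.45. Among all genes tested, 32.1% were lower and 21.2% higher. Parp1 fell (−1.61 ± 0.14, SE, adjusted p = 4.1e-05), as did Bid (−1.52 ± 0.15, SE, adjusted p = 7.7e-05) and Lmnb1 (−1.37 ± 0.13, SE, adjusted p = 8e-05). These genes have other uses in the cell, so the list is not one of killing alone.

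The 5 genes whose centred log2 profile over the 4 libraries lay nearest to Gzmb by Euclidean distance, of 9831 genes, were Fignl1 (0.207), Top2a (0.233), Gins1 (0.242), Cks1b (0.282) and Cdca7 (0.296). Top2a stood at 11.98 and 10.84 FPKM in WT, compared with 1.10 and 1.88 FPKM in R111A libraries, low in the same libraries as Gzmb. With 2 libraries per group, nearness mostly reflects a group difference of like size, so the shared direction is no further result. Of the 9831 genes, 46.3% had both R111A libraries below both WT libraries.

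The study's general method enriched CD4+ T cells with beads before flow sorting, within GFP+ cells for reporter mice. Markers of other cell types moved with some members, and their part in these results was not tested. Of all 16142 genes in the table, 4775 (29.6%) had both R111A libraries above both WT libraries and 5236 (32.4%) had both below. These shares are the background for the counts given next. For the CD4 T cell and regulatory T cell lists, whose genes all passed the filter, the background is 32.0% above and 46.3% below. Of 10 NK genes, 9 had both R111A libraries above WT, and 4 were listed at 0 in both WT libraries (Klra4, Klra7, Klra8 and Klra9). The summed NK level was 3.19, 0.73, 4.44 and 4.55 FPKM in WT replicates 1 and 2 and R111A replicates 1 and 2. Tyrobp, highest of the list in both WT libraries, overlapped between groups, at 2.94 and 0.63 FPKM in WT and 0.85 and 0.97 FPKM in R111A libraries.

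Without Tyrobp the other 9 NK genes summed to 0.25, 0.10, 3.59 and 3.58 FPKM in the same order. The NK receptor Ncr1 had 0.05 and 0 FPKM in the WT libraries against 0.30 and 0.12 FPKM in R111A libraries, about 6 and 2 fragments.

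Myeloid genes were higher too: 6 of 9 lay above WT in both R111A libraries, and their sum was 2.22 and 1.45 FPKM in WT and 15.65 and 11.07 FPKM in R111A libraries. Cd68 was the most abundant, at 8.89 and 6.81 FPKM in R111A, and Fcgr1 and S100a9 were listed at 0 in every library. The B cell list, with 2 of 7 genes above WT, summed to 2.15 and 1.05 FPKM in WT and 5.22 and 4.55 FPKM in R111A libraries. Cd79a was highest in the R111A libraries, while Pax5 lay at or below 0.06 FPKM and Ebf1 at or below 0.04 FPKM in every library.

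The CD4 T cell list, with 6 of 8 genes below WT in both R111A libraries, summed to 2075.54 and 2060.26 FPKM in WT and to 1728.3 and 1582.86 FPKM in R111A libraries. Cd3g was highest in all libraries but R111A replicate 1, and Cd4 itself measured 157.54 and 131.28 FPKM in WT samples and 70.69 and 51.35 FPKM in R111A samples. The CD8 list summed to 7.31 and 6.76 FPKM in WT and 3.88 and 4.46 FPKM in R111A, nearly all Cd8b1, with Cd8a at 0.10, 0.20, 0.02 and 0.07 FPKM. Lineage genes of the CD4+ T cell were thus present in every library and Cd8a was near 0.

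The regulatory T cell list, with 5 of 6 genes below WT, summed to 389.23 and 406.5 FPKM in WT and to 200.15 and 210.68 FPKM in R111A libraries, with Tnfrsf18 highest in WT and Il2ra highest in R111A libraries. Foxp3 stood at 11.31 and 8.78 FPKM in WT, compared with 2.86 and 1.86 FPKM in R111A libraries. The mast cell and basophil list summed to 2.31, 2.72, 2.48 and 1.24 FPKM, led by Gata1. The plasmacytoid dendritic cell list, with 4 of 5 genes below WT in both R111A libraries, summed to 223.54 and 232.4 FPKM in WT and 85.18 and 76.7 FPKM in R111A, led by Irf8 and Bst2, which T cells also express.

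**Figure D4:**
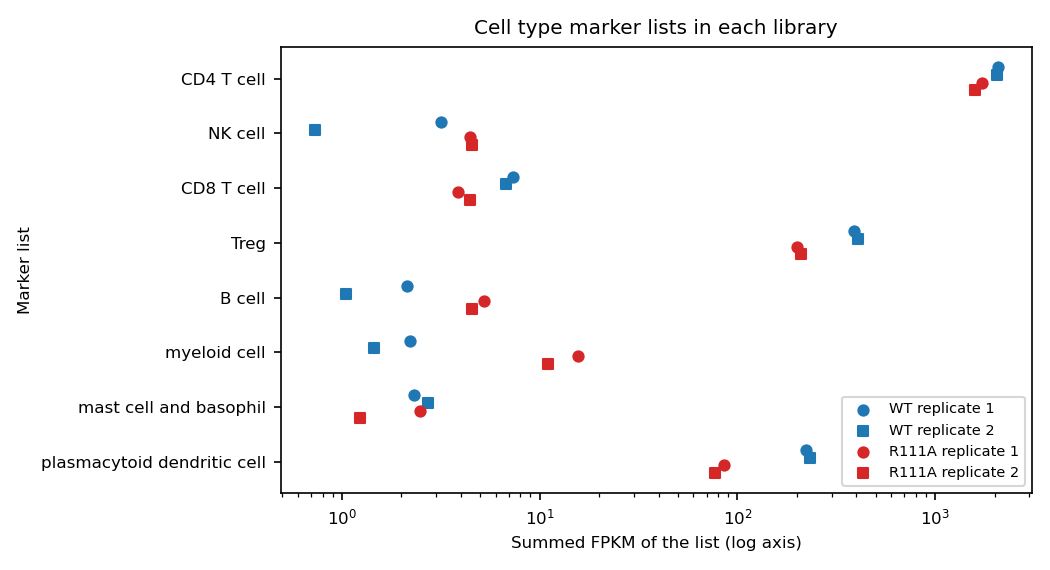
Summed FPKM of the marker lists described here in each library, on a log axis; blue points are WT and red points R111A libraries, circles replicate 1 and squares replicate 2. The CD4 T cell list is the highest in every library, and the myeloid list lies at 2.22 and 1.45 FPKM in WT against 15.65 and 11.07 FPKM in R111A.

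Nothing in the labels says that the libraries of a group came from separate mice, so p-values measure only the spread between these samples. Replicates of R111A differed more than those of WT: over 1938 genes at a mean of at least 50 FPKM, the robust SD of the log2 ratio between replicates was 0.32 in R111A and 0.13 in WT. Leaving out either WT library lowered the number of listed genes called lower, as it did that of all genes. Such fits hold a single WT library, so their counts are not given here.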

How the data were processed

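RNA from 4 libraries of activated CD4+ T cells, 2 WT and 2 R111A, was analysed from 1 table of all genes. The authors deposited FPKM values per gene and library. The submitters' processing notes name Bowtie2 2.4.4, RSEM 1.2.28 and the build mm10; the annotation was not given in the sources used here. FPKM are not counts, so a linear model on a log scale replaced the count model of the study's methods: limma 3.58.1 in R 4.3.3 (lmFit, eBayes with trend) on log2(FPKM + 1), for 9831 genes at a mean of at least 1 FPKM, with Benjamini-Hochberg adjustment. Genes were called at an adjusted p under 0.05, and also with a 2-fold change. The model was tested on simulated data with noise from its own moderated SDs, which may flatter it; with residual SDs shuffled across genes, a choice made first, it recovered far fewer of the smaller changes. Fragments were estimated from the steps between low FPKM values in genes with 1 annotated transcript. Named genes were, of each list, up to 4 called genes averaging 5 FPKM or more with the largest changes of 2-fold or over, plus a preset set. The members and lists were chosen with earlier results of these data known. Promoters came from RefSeq. Motifs were short fixed letter strings, matched on either strand. Alternatives were other pseudocounts, filters and scalings, a replicate block, no trend, and leaving out each library. 1 marker list is not reported here.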

Additional observations from a re-analysis of the deposited data

How the results depend on the processing

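The sizes of the members' differences depend on the pseudocount: with 0.1 and 5 FPKM, Gzmb was at −4.06 and −1.13, Gzma at 3.34 and 0.44, Prf1 at 1.61 and 0.34 and Klrd1 at 4.13 and 1.65. Srgn moved from −0.48 to −0.81 under TPM. No member changed direction under the other pseudocounts and scalings or with a library left out. A filter at 5 FPKM gave no value for Gzmb, Gzma and Prf1, and filters, the replicate block and the trend leave a difference unchanged by construction. TPM moved the median of all genes from −0.12 to −0.42 and median-of-ratios factors moved it to 0.01; relative to that median, Srgn stayed between −0.39 and −0.31 and Klrd1 between 3.04 and 3.30 over the scalings tried. The median over members was −0.56 with a pseudocount of 5 FPKM and −1.08 under TPM. Genes lower by 2-fold numbered 402 with a pseudocount of 5 FPKM and 1749 under TPM; genes higher numbered 386 with that pseudocount and 521 with a filter at 5 FPKM, which tests fewer genes. Leaving out 1 library gave 23 to 44 listed genes lower, the lowest without WT replicate 1, against 36; the lone library of a group is then assumed to vary like the other group. The number of all genes called lower by adjusted p moved the same way, falling without either WT library and rising without either R111A library. The shift is thus not particular to the listed genes. Reversed signs were those of Stx11 (−0.12) and Lamp1 (−0.044) under TPM, and of Il2ra with median-of-ratios factors (0.025) and quantile normalization (0.13). None was called in the analysis reported, and the cause was not tested. TPM and median-of-ratios factors scale all genes of a library alike, so a turn under them is no result about a single gene. Replicate numbers are shared by the groups, but the deviations of same-numbered libraries correlated at only 0.111 over 9831 genes, with 2 pairs, so the numbers were not treated as pairing. With a replicate block, 821 genes were lower and 841 higher by 2-fold, and 38 listed genes were lower and 31 higher, and Runx3 (adjusted p = 0.032) and Id2 (adjusted p = 0.044) passed the test. Low levels limit Gzma, Gzmk and the NK genes, which rest on few fragments. The same holds for Gzmb in R111A libraries (about 2 and 13) and Klrd1 in WT libraries (about 11 and 4). Prf1 was low as well, at about 20 and 30 fragments in WT and 94 and 58 in R111A libraries.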
